A study of Mus musculus with 60 samples.

Results

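The genes described here are 39 ligands and receptors of the 4 classical axon guidance systems, netrins, slits, semaphorins and ephrins, in fetal mouse brain. They were listed by name and role, not by a measured value, and each was read from the transcript cluster (the array's unit, usually 1 per gene) that carries its symbol alone, the brightest where there were several. Of the 39 genes, 38 were measured, 14 ligands and 24 receptors, among 19938 genes with such a transcript cluster. No transcript cluster was named Ephb2.

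Axon guidance is the steering of a growing axon by cues in its surroundings. Netrin draws axons through Dcc and turns them away through Unc5 receptors. Slits repel axons through Robo receptors, which keeps commissural axons from crossing the midline again. Class 3 semaphorins repel through neuropilins paired with plexins, and ephrins, which are bound to the cell surface, act on Eph receptors of the neighbouring cell to sort axons into maps and tracts. In the brain shortly before birth these systems guide thalamic, callosal and corticospinal axons.

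Chlorpyrifos oxon (CPO), the metabolite through which the insecticide chlorpyrifos inhibits acetylcholinesterase, was given to pregnant mice of strain background B6.129 on gestational days 6 to 17, and the fetal brains were taken on day 18. There were 4 labelled genotypes. They were wild type (WT), the PON1 knockout (KO) and 2 lines that carry human PON1, tgHuPON1Q192 (Q-tg) and tgHuPON1R192 (R-tg). PON1 is the blood enzyme that hydrolyses CPO. WT, Q-tg and R-tg received 0, 0.75 or 0.85 mg per kg and day, and KO received 0, 0.50 or 0.75. Each of the 12 groups held 5 arrays, and an array held the pooled RNA of the fetuses of 1 dam. Dams whose brain acetylcholinesterase lay far from their group's mean had been left out before dams were drawn at random. The labels do not state which promoter drives the transgenes, nor whether the mouse gene is intact in those lines.

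Values are log2 signals, so a difference of 1 is a doubling, and a signal below 6.54 counted as dim (of 1035 transcript clusters for olfactory receptors, genes of the nose, 95% lie below it). Any 2 arrays correlated between 0.9865 and 0.9984, and neuron markers were bright on all arrays, with a list mean of 12.00 to 12.14. Mouse Pon1 itself was low (4.84 to 5.67) on 15 arrays and high (9.72 to 10.14) on 45, and on 10 arrays in 7 groups it went against the label (5 KO arrays high, 5 others low), so groups are named by label throughout. Here low Pon1 counted as against the label in every line but KO. For Q-tg and R-tg this assumes an intact mouse gene, which the labels do not state. It concerns 1 array each of Q-tg at dose 0, Q-tg at 0.85 and R-tg at 0.75, where the other arrays of the group were high. On 3 further arrays most guidance genes read high together: KO at 0.50 replicate 4, R-tg at 0.85 replicate 5 and R-tg at dose 0 replicate 1. Their medians over all transcript clusters with a single symbol were also the highest, at 7.783, 7.8 and 7.81, against at most 7.743 on the other arrays. The high reading was therefore not confined to guidance genes. Over the 38 genes the mean absolute deviation of these 3 arrays was 0.139 to 0.168, against at most 0.115 on the other arrays. That 0.115 belonged to R-tg at 0.85 replicate 4, where the genes read low on average (mean signed deviation -0.111). Its median over all transcript clusters with a single symbol was 7.659, and no array lay below that. Each whole brain is a mixture, so fewer cells of a type and less RNA per cell cannot be told apart.

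Of the 38 genes, 37 lay above the dim level, and each was steady over the 60 arrays. In the netrin system the ligand Ntn1 averaged 8.61 ± 0.09 (SD over 60 arrays) and ran from 8.37 to 8.83. Dcc, the attractive receptor, averaged 10.40 ± 0.07 and stayed within 10.24 to 10.53. The repulsive Unc5 receptors averaged 9.33 ± 0.09 for Unc5a, 7.55 ± 0.07 for Unc5b, 9.44 ± 0.11 for Unc5c and 9.61 ± 0.07 for Unc5d. Levels of different genes rest on different probes and are not ranked against each other. Among the slits, Slit1 averaged 9.23 ± 0.09, Slit2 9.21 ± 0.09 and Slit3 7.95 ± 0.08. Their receptors Robo1 (11.07 ± 0.07) and Robo2 (11.12 ± 0.05) varied little, and Robo2 had the smallest SD of all 38 genes. Robo3, which lets commissural axons cross the midline, was the dim gene, with 6.25 ± 0.13 and a range of 5.78 to 6.49.

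Secreted semaphorins read 9.20 ± 0.08 for Sema3a, 9.34 ± 0.09 for Sema3c, 6.83 ± 0.14 for Sema3d, 7.60 ± 0.09 for Sema3e and 9.22 ± 0.08 for Sema3f. Sema7a, a semaphorin anchored in the membrane that promotes axon growth, averaged 9.63 ± 0.07. The neuropilins, which bind class 3 semaphorins, averaged 10.08 ± 0.07 for Nrp1 and 9.71 ± 0.08 for Nrp2. The plexins carry the signal into the cell. Those of class A averaged 10.79 ± 0.08 (Plxna1), 10.85 ± 0.07 (Plxna2), 9.70 ± 0.12 (Plxna3) and 10.88 ± 0.08 (Plxna4). The others averaged 9.20 ± 0.09 for Plxnb1, 10.16 ± 0.07 for Plxnb2, 10.39 ± 0.07 for Plxnc1, the Sema7a receptor, and 9.32 ± 0.10 for Plxnd1, the Sema3e receptor.

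The ephrins averaged 9.03 ± 0.10 for Efna2, 9.24 ± 0.09 for Efna5, 9.79 ± 0.07 for Efnb2 and 9.92 ± 0.07 for Efnb3. Among the EphA receptors, Epha3 had the widest SD of all 38 genes, with 9.34 ± 0.16 and a range of 9.01 to 9.68. Epha4, which holds corticospinal axons on their side of the midline, averaged 10.23 ± 0.06. Epha5 and Epha7, which read ephrin-A gradients, averaged 10.15 ± 0.07 and 10.16 ± 0.08. The EphB receptors averaged 9.40 ± 0.08 for Ephb1 and 7.80 ± 0.09 for Ephb3.

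No guidance gene differed among the 12 labelled groups after adjustment. In limma's F test over all groups 0 of the 38 passed an adjusted p of 0.05, as did 0% of all 21789 transcript clusters. At an unadjusted p under 0.05 there were 4 of 38 (10.5%), beside 4.84% of all transcript clusters. They were the ligands Sema7a (unadjusted p = 0.00167), Sema3a (0.0222), Ntn1 (0.0373) and Sema3d (0.0407), each with a limma adjusted p of 0.95. All 4 are ligands, and no receptor reached that level. The count of 4 was 12 without R-tg at 0.85 replicate 5, and 2 without R-tg at dose 0 replicate 1 or replicate 4.

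**Figure D1:**
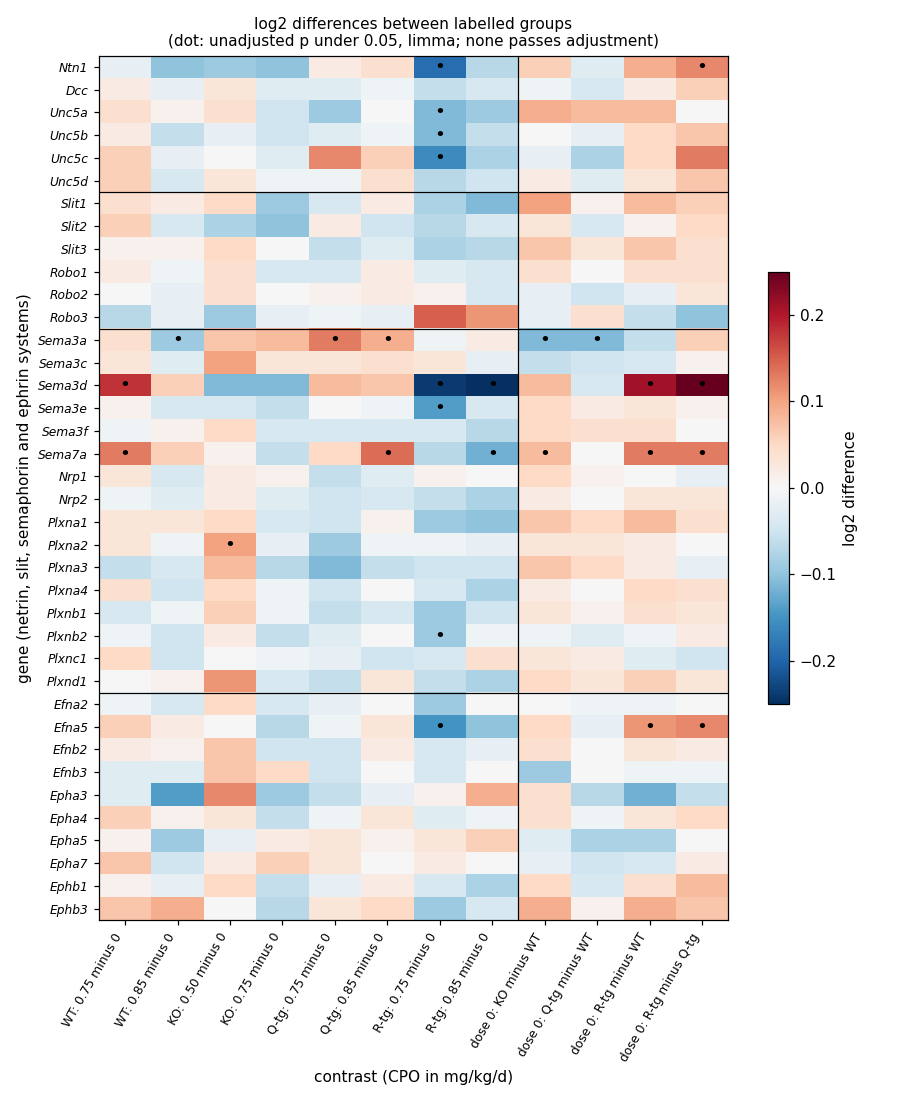
Log2 differences of the 38 guidance genes (rows, in the order netrin, slit, semaphorin, ephrin) in 8 contrasts of a CPO dose against dose 0 and 4 contrasts between labelled genotypes at dose 0 (columns). Red is higher in the first group, blue lower, on a scale that ends at 0.25 in either direction, and dots mark an unadjusted limma p under 0.05, none of which passed adjustment. The 8 dots of R-tg at 0.75 are all blue and include 4 of the 6 netrin genes.

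CPO was set against dose 0 within each label to ask how the guidance systems respond to the compound, and 0 of 38 genes passed in any of the 8 dose contrasts (0% of all transcript clusters in each). In WT at 0.75 the median log2 difference of the 38 was 0.023, beside 0.005 over all transcript clusters. An unadjusted p under 0.05 was found for 2 genes (5.26%), beside 10.2% of all. Sema7a read 9.54, 9.55, 9.57, 9.58 and 9.61 on the arrays at dose 0 and 9.77, 9.68, 9.70, 9.63 and 9.69 at 0.75. The groups did not overlap, with a difference of 0.13 (SE 0.04, 95% interval 0.05 to 0.21, limma adjusted p = 0.456). The other gene was Sema3d, at 0.18 (SE 0.08), and the next largest values were 0.07 for Epha7 and -0.07 for Robo3. The count of 2 ran from 1 to 3 over leaving out each array, with 1 without WT at dose 0 replicate 1, 2 or 3 or at 0.75 replicate 2 or 3. In WT at 0.85 the median was -0.022, and 1 gene had an unadjusted p under 0.05, beside 2.15% of all. That was Sema3a, the ligand that repels cortical and sensory axons, at 9.16 ± 0.11 (SD, n = 5) against 9.25 ± 0.08 at dose 0. Its arrays at 0.85 spread from 9.03 to 9.30 and those at dose 0 from 9.16 to 9.35, so they overlapped widely (difference -0.09, SE 0.04, limma adjusted p = 1). The values of the next largest were -0.14 for Epha3, -0.10 for Ntn1 and 0.09 for Ephb3. The count of 1 was 4 without replicate 2 at 0.85, 2 without replicate 5 at 0.85 or replicate 1 or 2 at dose 0, and 0 without replicate 4 at 0.85 or replicate 5 at dose 0.

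In KO at 0.50, 27 of 38 genes were above their dose 0 mean (median 0.035, beside 0.000 over all transcript clusters, where 49.8% were lower). That median was 0.010 without replicate 4 at 0.50, an array on which most guidance genes read high. It was 0.001 with array weights, and 0.045 without the 10 arrays that go against the label by Pon1. The unadjusted p was under 0.05 for 1 of the 38 genes, beside 1.84% of all. Plxna2, a receptor for Sema3a and Sema6 cues, read 10.77, 10.83, 10.94, 10.91 and 10.84 at dose 0 and 10.96, 10.91, 11.00, 11.02 and 10.89 at 0.50. All 5 exposed arrays lay above 3 of the controls, and the difference was 0.10 (SE 0.04, limma adjusted p = 1). Pon1 was low on all 5 arrays at 0.50. It was high on 2 of the 5 controls, and these had the lowest Plxna2 values of the controls, 10.77 and 10.83. Without the 10 arrays that go against the label by Pon1 the Plxna2 difference was 0.06. Larger differences with wider errors were 0.12 for Epha3 (SE 0.09), 0.11 for Plxnd1 (SE 0.06), -0.11 for Sema3d (SE 0.08) and 0.10 for Sema3c (SE 0.06). The count of 1 was 0 without replicate 1 at dose 0, 3 without replicate 4 at dose 0, and 2 without replicate 2 at dose 0 or replicate 5 at 0.50. In KO at 0.75, 32 of 38 were below their dose 0 mean (median -0.040, beside -0.020 over all, where 63% were lower). Pon1 was high on 3 of the 5 arrays at 0.75 and on 2 of the 5 at dose 0. Without the 10 arrays that go against the label by Pon1, the median of the 38 was -0.009. With all arrays 0 of the 38 had an unadjusted p under 0.05, beside 2.9% of all. Slit2, the midline repellent, had the smallest p, with 9.34, 9.06, 9.07, 9.23 and 9.18 at 0.75 against 9.33, 9.41, 9.25, 9.14 and 9.23 at dose 0. These overlapped (difference -0.10, SE 0.05, limma adjusted p = 0.999). Ntn1 differed by the same -0.10 (SE 0.05) and Sema3d by -0.11 (SE 0.08). Sema3a and Sema7a differed by 0.08 and -0.06 (SE 0.04 each). Epha3 differed by -0.09 (SE 0.09). The count of 0 was 4 without replicate 1 at 0.75, 2 without replicate 4 at dose 0, 1 without replicate 3 at dose 0, and 3 with array weights.

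In Q-tg the semaphorin ligands had the smallest p-values. At 0.75, 1 of 38 genes had an unadjusted p under 0.05, beside 2.35% of all. Sema3a read 9.24, 9.19, 9.29, 9.30 and 9.31 at 0.75 and 9.14, 9.13, 9.11, 9.20 and 9.09 at dose 0, where only the highest control reached the lowest exposed array (difference 0.13, SE 0.04, limma adjusted p = 1). Unc5c differed by 0.12 (SE 0.07), Plxna3 by -0.11 (SE 0.07) and Unc5a by -0.09 (SE 0.05). The median of the 38 was -0.027 there, beside 0.004 over all, and the count was 4 after median centring and 1 to 2 over leaving out each array. At 0.85, 2 of 38 had an unadjusted p under 0.05, beside 3.86% of all. Sema7a read 9.65, 9.68, 9.75, 9.78 and 9.67 at 0.85 against 9.59, 9.57, 9.52, 9.65 and 9.52 at dose 0. The control at 9.65 was just under the lowest exposed array, and the difference was 0.14 (SE 0.04, limma adjusted p = 0.999). Sema3a differed by 0.09 (SE 0.04) in the same contrast, Sema3d by 0.07 (SE 0.08) and Plxna3 by -0.06 (SE 0.07). The count of 2 was 1 without any 1 of 7 of the 10 arrays, and the 2 doses share their 5 controls.

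With all arrays, R-tg at 0.75 had the most guidance genes with a small p of the dose contrasts, all of them lower than at dose 0. Without the 3 arrays that read high together it had 4, and R-tg at 0.85 had 9. With all arrays there were 8 of 38 (21.1%) at an unadjusted p under 0.05, beside 5.31% of all transcript clusters, and 31 of 38 were below their dose 0 mean (median -0.058, beside -0.016 over all, where 59% were lower). With each array centred on its median, the median of the 38 was -0.022. All 6 netrin genes were lower, with a median of -0.110, and 4 of the 8 were of that system. Ntn1 read 8.66, 8.54, 8.54, 8.41 and 8.44 at 0.75 and 8.77, 8.58, 8.76, 8.80 and 8.65 at dose 0. Only replicate 1 at 0.75 reached the control range, and the difference was -0.19 (SE 0.05, 95% interval -0.30 to -0.08, limma unadjusted p = 0.000822, adjusted p = 0.898). Its repulsive receptors differed by -0.16 (SE 0.07) for Unc5c, -0.11 (SE 0.04) for Unc5b and -0.11 (SE 0.05) for Unc5a. Of the 16 semaphorin genes 14 were lower (median -0.055), as were 7 of 10 ephrin genes (-0.040) and 4 of 6 slit genes (-0.053). Sema3d differed by -0.24 (SE 0.08), Sema3e by -0.14 (SE 0.06) and Plxnb2 by -0.09 (SE 0.04). Efna5, a repellent of retinal and thalamic axons, read 9.17, 9.22, 9.17, 9.23 and 9.09 against 9.40, 9.24, 9.27, 9.34 and 9.39, which did not overlap (difference -0.15, SE 0.05). The count of 8 rested in part on R-tg at dose 0 replicate 1, an array on which most guidance genes were high, since 4 were left without it. It was also 4 without replicate 4 at 0.75, 5 without replicate 2 at 0.75, and 5 with only these groups in the fit. In the other direction it was 10 without replicate 3 at dose 0, and 10 with the hindbrain marker mean as a covariate. With array weights Ntn1 differed by -0.12 and Sema3d by -0.13. Several marker lists also read lower at 0.75. The astrocyte list mean was 9.19 ± 0.11 (SD, n = 5) at dose 0 and 9.10 ± 0.06 at 0.75, with 4 of 5 genes lower. The choroid plexus list mean was 8.57 ± 0.07 and 8.49 ± 0.09, with 5 of 6 lower, 2 of them at an unadjusted p under 0.05. The hindbrain list mean was 6.61 ± 0.22 and 6.44 ± 0.20, with 14 of 18 lower, and with it as a covariate Ntn1 differed by -0.18. All 6 vascular genes (list mean 8.89 ± 0.10 and 8.84 ± 0.07) and all 5 microglia genes (7.36 ± 0.06 and 7.29 ± 0.04) were also below their dose 0 mean. So were all 4 thalamus genes (8.80 ± 0.06 and 8.74 ± 0.04) and 4 of 5 oligodendrocyte lineage genes. Other lists went the other way, with 4 of 4 cartilage and bone, 6 of 9 pituitary and 3 of 5 skeletal muscle genes higher. The part of these lists other than the hindbrain one in the result was not tested.

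At 0.85 in R-tg, 2 of 38 genes had an unadjusted p under 0.05, beside 4.86% of all. Below their dose 0 mean were 30 of 38 (median -0.044, beside -0.008 over all, where 54.9% were lower). Sema7a read 9.59, 9.59, 9.44, 9.52 and 9.75 at 0.85 and 9.78, 9.67, 9.66, 9.68 and 9.70 at dose 0. Of the exposed arrays, 4 lay below every control and replicate 5 lay among them (difference -0.12, SE 0.04, limma adjusted p = 0.987). Sema3d differed by -0.25 (SE 0.08), beside -0.24 at 0.75, with the same 5 controls in both contrasts. Slit1 differed by -0.11 (SE 0.05) and Robo3 by 0.11 (SE 0.08). Without replicate 5 at 0.85, the array on which guidance genes were high, 15 of 38 had an unadjusted p under 0.05. Sema7a then differed by -0.17 (limma adjusted p = 0.111). That fit kept replicate 4 at 0.85, on which guidance genes read low on average. The mean signed deviation of the 38 genes was -0.111 on replicate 4 and 0.147 on replicate 5. The median of -0.044 was -0.079 without replicate 5 and -0.015 without replicate 4. The count of 2 was 7 without replicate 3 at dose 0 and 4 without replicate 2 or replicate 4 at dose 0.

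Averaged over labels, the dose contrasts were smaller. At 0.75 over the 4 labels, 4 of 38 genes had an unadjusted p under 0.05, beside 4.08% of all. Of the 38 genes 31 were lower (median -0.025, beside -0.010 over all, where 61.6% were lower). Ntn1 led with -0.07 (SE 0.03), and Sema3a was the 1 gene of the 4 that was higher, at 0.06 (SE 0.02). Plxna3 differed by -0.07 (SE 0.03) and Plxnb2 by -0.05 (SE 0.02), and the limma adjusted p was 0.966 for each. Unc5a differed by -0.05 (SE 0.03). Ntn1 had a median of 8.60 (8.41 to 8.71) on the 20 arrays at 0.75 and of 8.63 (8.51 to 8.83) on the 20 at dose 0, where 5 controls lay above every exposed array and 4 exposed arrays below every control. The count of 4 was 2 without R-tg at dose 0 replicate 1. It was 7 without KO at 0.75 replicate 1, Q-tg at dose 0 replicate 1, R-tg at 0.75 replicate 3 or WT at dose 0 replicate 5, and 1 without the 10 arrays that go against the label by Pon1. At 0.85 over WT, Q-tg and R-tg, 0 of 38 had an unadjusted p under 0.05, beside 1.67% of all. Of the 38 genes 32 were lower, where 44.2% of all transcript clusters were, and the median of the 38 was -0.020, beside 0.004 over all. The count of 0 was 3 without R-tg at 0.85 replicate 5 and 1 without Q-tg at dose 0 replicate 1. Unc5b had the smallest p there (difference -0.04, SE 0.03), with means of 7.51 to 7.56 at 0.85 and 7.55 to 7.62 at dose 0 in these labels. Its 15 arrays at 0.85 ran from 7.44 to 7.59 (median 7.55) and the 15 at dose 0 from 7.46 to 7.71 (median 7.59), and 7 of the latter lay above every array at 0.85. Nrp2 and Plxna3 differed by -0.05 and Slit2 by -0.04. The 95% intervals of all 38 genes stayed within -0.14 to 0.10 at 0.75 and within -0.13 to 0.12 at 0.85.

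**Figure D2:**
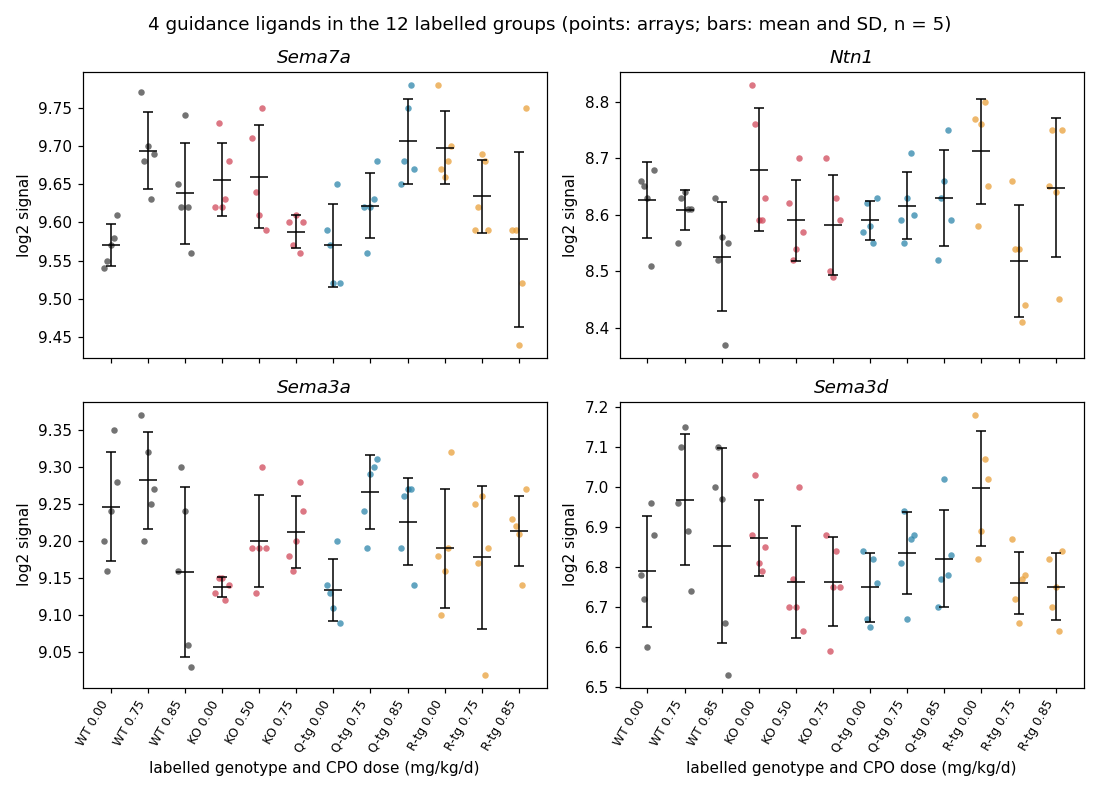
Log2 signal of Sema7a, Ntn1, Sema3a and Sema3d on each array (points) by labelled genotype and CPO dose in mg/kg/d, with the mean and SD of each group (bars, n = 5). Sema7a at dose 0 averaged 9.57 in WT and Q-tg and 9.70 in R-tg, and its means in WT at 0.75 and in Q-tg at 0.85 were 9.70 and 9.71. The vertical axes differ in range and do not start at 0.

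The labelled genotypes were compared at dose 0 to ask whether the label goes with a difference, and 0 of 38 genes passed in any of the 4 contrasts (0% of all). Pon1 was high on 2 of the 5 KO arrays, and low on 1 of the 5 WT and 1 of the 5 Q-tg arrays. These contrasts therefore compare labels, and cannot tell what goes with PON1 status itself. For KO minus WT, 2 of 38 had an unadjusted p under 0.05, beside 3.25% of all. Sema3a read 9.13, 9.15, 9.15, 9.12 and 9.14 in KO and 9.20, 9.16, 9.24, 9.35 and 9.28 in WT, without overlap (difference -0.11, SE 0.04, limma adjusted p = 0.999). Sema7a differed by 0.08 (SE 0.04), Slit1 by 0.10 (SE 0.05), and Ephb3 and Unc5a by 0.09. The count of 2 ran from 1 to 3 over leaving out each array, with 1 without KO replicate 5 or WT replicate 1, 3 or 4. For Q-tg minus WT, Sema3a was the 1 gene under that p, beside 1.66% of all, again with -0.11 (SE 0.04). Unc5a differed by 0.08 (SE 0.05), and Unc5c and Epha5 by -0.08. The count of 1 was 0 without WT replicate 4 and 2 without WT replicate 1 or Q-tg replicate 3. These contrasts share their 5 WT arrays.

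For R-tg minus WT, 3 of 38 had an unadjusted p under 0.05, beside 3.93% of all, and for R-tg minus Q-tg 4 of 38, beside 5.43% of all. Sema7a differed by 0.13 (SE 0.04) in each, and all 5 R-tg arrays, at 9.66 to 9.78, lay above every WT array (9.54 to 9.61) and every Q-tg array (9.52 to 9.65). The limma adjusted p was 1 against WT and 0.861 against Q-tg. Sema3d, which guides axons and neural crest cells, read 7.18, 6.82, 6.89, 7.07 and 7.02 in R-tg, against 6.60 to 6.96 in WT and 6.65 to 6.84 in Q-tg. It differed by 0.21 (SE 0.08) from WT and by 0.25 (SE 0.08) from Q-tg. Efna5 differed by 0.11 and 0.12 (SE 0.05 each), and Ntn1 by 0.09 and 0.12 (SE 0.05 each). Epha3 differed by -0.12 (SE 0.09) from WT and Unc5c by 0.13 (SE 0.07) from Q-tg. The count of 3 against WT was 1 without WT replicate 3, and that of 4 against Q-tg was 2 without R-tg replicate 1 or Q-tg replicate 1. The same 5 R-tg arrays at dose 0 are the controls of both R-tg dose contrasts, so these values and the lower ones under CPO rest on shared arrays.

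Whether the CPO response differed between labels was tested as 7 interaction contrasts, and 0 of 38 genes passed. Over all transcript clusters 0% passed in 6 of them, and 1 (0.00459%) passed in R-tg minus WT at 0.75. Counts at an unadjusted p under 0.05 were 4 of 38 for KO minus WT at 0.75, beside 7.59% of all, and 0 for Q-tg minus WT at 0.75, beside 2.23%. They were 8 for R-tg minus WT at 0.75, beside 13%, and 5 for R-tg minus Q-tg at 0.75, beside 5.81%. At 0.85 they were 1 for Q-tg minus WT, beside 1.87%, 3 for R-tg minus WT, beside 4.76%, and 2 for R-tg minus Q-tg, beside 8.2%. After median centring the count of 8 was 4, and its median of -0.072 over the 38 genes was -0.020. That count was also 4 without R-tg at 0.75 replicate 4, and 5 without R-tg at dose 0 replicate 1 or WT at dose 0 replicate 4. The count of 4 for KO minus WT was 2 without WT at dose 0 replicate 3 or WT at 0.75 replicate 3 or 5. The 0 for Q-tg minus WT at 0.75 was 1 without Q-tg at dose 0 replicate 5, WT at dose 0 replicate 2 or WT at 0.75 replicate 4.

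Sema3d had the widest difference in response at 0.75, with -0.41 (SE 0.12, limma adjusted p = 0.282) between R-tg and WT and -0.29 (SE 0.12) between KO and WT. Its signal lay close to the dim level (mean 6.83). Between R-tg and WT, Unc5c differed in response by -0.22 (SE 0.09), Robo3 by 0.21 (SE 0.12) and Efna5 by -0.21 (SE 0.08). Between KO and WT, Sema7a differed by -0.19 (SE 0.06), Slit2 by -0.16 (SE 0.08) and Ephb3 by -0.13 (SE 0.08). Between Q-tg and WT at 0.75 the values were -0.13 for Unc5a, -0.11 for Plxna2, 0.10 for Sema3a and -0.10 for Sema3d. In R-tg minus Q-tg at 0.75 it was -0.32 (SE 0.12), and the netrin genes Unc5c and Ntn1 had the smallest p there with -0.29 (SE 0.09) and -0.22 (SE 0.08), while Robo3 had 0.16 (SE 0.12). At 0.85 Sema3a differed in response by 0.18 (SE 0.06) between Q-tg and WT, Ntn1 by 0.14, Epha3 by 0.13 and Epha5 by 0.10. Between R-tg and WT at 0.85 the values were -0.31 for Sema3d (SE 0.12), 0.24 for Epha3 (SE 0.13), -0.19 for Sema7a (SE 0.06) and 0.15 for Epha5 (SE 0.07). The smallest p of all belonged to Sema7a in R-tg minus Q-tg at 0.85. Its response was -0.12 in R-tg and 0.14 in Q-tg, a difference of -0.26 (SE 0.06, 95% interval -0.37 to -0.15, limma unadjusted p = 2.04e-05, adjusted p = 0.311). Sema3d differed by -0.31 (SE 0.12) there, and Unc5c and Efna5 by -0.14. Without R-tg at 0.85 replicate 5 the count in this contrast was 10, against 2 with all arrays. It was 4 without R-tg replicate 2 or Q-tg replicate 3 at dose 0. The median over the guidance genes was -0.080 without R-tg at 0.85 replicate 5 and -0.020 without the low replicate 4. In R-tg minus WT at 0.85 the count of 3 was 8 without R-tg at 0.85 replicate 5, 6 without WT at 0.85 replicate 2, and 5 without R-tg at 0.85 replicate 4 or WT at dose 0 replicate 2. In Q-tg minus WT at 0.85 the count of 1 was 1 to 2 over leaving out each array.

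Sema7a passed in that contrast once R-tg at 0.85 replicate 5 was left out (-0.30, limma adjusted p = 0.00858, with 25 of 21789 transcript clusters passing). It also passed with array weights (adjusted p = 0.024, 118 passing) and without the 3 arrays that read high together (adjusted p = 0.0236, 6 passing), an alternative chosen after the data were seen. Over leaving out each of the 20 arrays in turn, its adjusted p ran from 0.00858 to 0.669. Its promoter is shown because it is the gene with the smallest p both in the F test and in this contrast. The window runs from 250 bases before the start of transcription to 50 after it, at chr9:57939862-57940161 on the plus strand (RefSeq, GRCm38.p6), with GC boxes in capitals.
Sema7a: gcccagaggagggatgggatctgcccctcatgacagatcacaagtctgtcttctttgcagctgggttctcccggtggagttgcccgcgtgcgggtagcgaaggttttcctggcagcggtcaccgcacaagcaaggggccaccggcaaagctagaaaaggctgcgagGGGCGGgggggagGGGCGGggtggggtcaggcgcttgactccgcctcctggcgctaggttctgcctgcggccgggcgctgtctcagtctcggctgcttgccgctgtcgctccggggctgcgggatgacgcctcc
A GC box was searched as GGGCGG and a CCAAT box as CCAAT, each on both strands, and the 2 do not overlap here. The window held 2 GC boxes and no CCAAT box, and 67.3% of its bases were G or C. Of all 32851 promoters of the same length, 35.7% held a GC box and 37.4% a CCAAT box.

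Within labelled groups Epha3 and Plxna2 followed the Pon1 level of the array. Of the 12 labelled groups, 7 held both arrays with low and arrays with high Pon1. In all 7 of them Epha3 was higher on every array with low Pon1 than on every array with high Pon1, and so was Plxna2. That makes 2 of 38 guidance genes, beside 0.376% of 19938 genes (75) with such a split in either direction. In KO at dose 0, Epha3 read 9.26 and 9.33 on the arrays with high Pon1 and 9.56, 9.58 and 9.38 on those with low Pon1. In KO at 0.75 it read 9.10, 9.35 and 9.18 on the arrays with high Pon1 and 9.46 and 9.55 on the others. The single array with low Pon1 read 9.68 in WT at dose 0, where the others lay at 9.23 to 9.40, and 9.59 in R-tg at 0.75, where they lay at 9.02 to 9.36. It read 9.50 in WT at 0.85 (others 9.01 to 9.45), 9.47 in Q-tg at dose 0 (others 9.14 to 9.34) and 9.55 in Q-tg at 0.85 (others 9.14 to 9.31).

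Over all arrays Epha3 lay between 9.38 and 9.68 on the 15 with low Pon1 and between 9.01 and 9.59 on the 45 with high Pon1, so the ranges overlapped. For Plxna2 these ranges were 10.84 to 11.02 and 10.71 to 10.98. Ephb1 and Plxna3 had the same split in 6 of the 7 groups, which makes 4 of 38 guidance genes with a split in 6 or more, beside 1.54% of all genes (307). No test was made, since the arrays were parted by a measured gene. A split in 5 or more was found for 7 of 38 guidance genes, beside 5.22% of all genes. These included Dcc and Unc5a, higher on the arrays with low Pon1 in 5 groups, and Sema3d, lower on them in 5. Some marker lists were also split by Pon1 level, in 4 or 5 of the 7 groups. The cortex list was higher on the arrays with low Pon1 in 5 of the 7 groups, as was the thalamus list, and the pituitary, vascular and microglia lists were higher in 4 and lower in 1. The hindbrain list was lower in 4, and the oligodendrocyte lineage list was lower in 4 and higher in 1. Their part in the pattern was not tested. Without the 10 arrays whose Pon1 goes against the label, Epha3 was the 1 guidance gene that passed the F test (limma adjusted p = 0.0235, with 79 of 21789 transcript clusters passing), against an adjusted p of 0.95 with all arrays. That fit leaves only low Pon1 in KO and only high Pon1 in the other labels, so it too parts the arrays by measured Pon1. It is no independent test of the split described above, for which Epha3 was named. KO minus WT at dose 0 was 0.04 for Epha3 with all arrays and 0.20 without those 10 (limma adjusted p = 0.733). For Plxna2 it was 0.03 and 0.09.

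**Figure D3:**
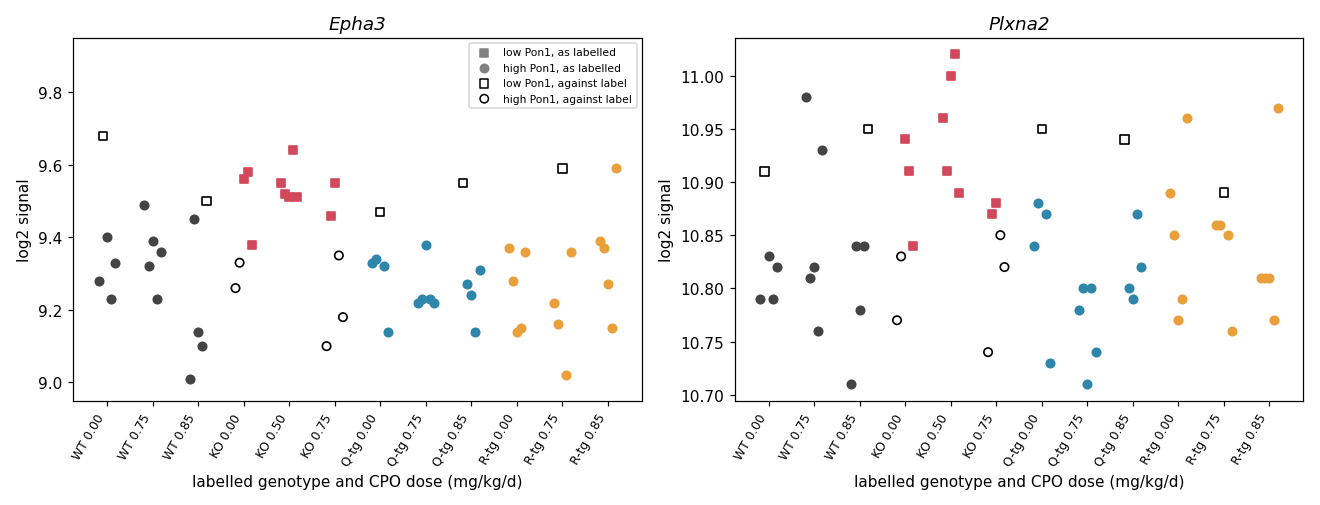
Log2 signal of Epha3 and Plxna2 on each array by labelled genotype and CPO dose in mg/kg/d. Squares are the 15 arrays with low Pon1 and circles the 45 with high Pon1, and open symbols mark the 10 arrays whose Pon1 goes against the label. In each of the 7 groups that hold both shapes, every square lies above every circle.

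Ligands and receptors that bind each other were compared over the 60 arrays to ask whether the 2 sides vary together. Of 37 listed pairs, 35 were measured, and 17 passed a permutation test after adjustment over the 35 pairs, all with a positive correlation of at least 0.30. The median r was 0.27, and 48.6% of the pairs reached 0.30. Among all 703 pairs of guidance genes the median was 0.32, and 51.4% reached 0.30. The median of the binding partners was not above that of guidance genes in general. Among 100585836 pairs of all 14184 genes above the dim level the median was 0.12, and 27.5% reached 0.30. Arrays shared part of this variation, since after each array was centred on its median the medians were 0.08, 0.14 and 0.01, and 11 of the 35 pairs passed. The median was 0.32 within a system and 0.31 between systems.

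The ligand Efnb2 and its receptor Ephb1, which part axons at the optic chiasm, had the highest r of the 35. It was 0.61 (Spearman's rho 0.53, permutation p = 1e-05, the smallest that 100000 permutations can give, adjusted p = 7e-05). Leaving out the 2 arrays farthest from the Efnb2 median gave 0.51, and leaving out each array in turn gave 0.56 to 0.63. With group means removed it was 0.51, with the hindbrain markers regressed out 0.43, after median centring 0.44, and without the 3 arrays that read high together 0.44. With the mean of the transcript clusters of Ephb1 it was 0.41. Efnb2 and Epha4 had an r of 0.58, and 0.36 after median centring. By rho, with group means removed and after median centring, Ntn1 and Unc5c lay higher than Efnb2 and Ephb1, at 0.62, 0.61 and 0.48. The promoters of Efnb2 and Ephb1 are shown because this pair had the highest Pearson r of the 35. They lie at chr8:8661193-8661492 for Efnb2 and chr9:102354644-102354943 for Ephb1, both on the minus strand (RefSeq, GRCm38.p6), with GC boxes and CCAAT boxes in capitals.
Efnb2: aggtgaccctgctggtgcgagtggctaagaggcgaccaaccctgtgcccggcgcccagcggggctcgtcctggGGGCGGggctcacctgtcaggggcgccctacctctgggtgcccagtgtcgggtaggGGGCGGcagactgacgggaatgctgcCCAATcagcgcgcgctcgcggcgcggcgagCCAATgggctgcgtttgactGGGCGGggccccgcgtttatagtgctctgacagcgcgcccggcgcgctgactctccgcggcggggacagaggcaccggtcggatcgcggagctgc
Ephb1: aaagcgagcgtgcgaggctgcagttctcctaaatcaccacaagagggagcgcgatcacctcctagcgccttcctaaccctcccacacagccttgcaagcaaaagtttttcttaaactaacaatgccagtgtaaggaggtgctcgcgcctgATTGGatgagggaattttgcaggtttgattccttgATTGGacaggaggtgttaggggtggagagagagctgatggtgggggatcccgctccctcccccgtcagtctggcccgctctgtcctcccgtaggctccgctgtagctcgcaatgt
The Efnb2 window held 3 GC boxes and 2 CCAAT boxes, with 72.3% G or C. The Ephb1 window held no GC box and 2 CCAAT boxes, read as ATTGG on the opposite strand, with 55.7% G or C. A CCAAT box in both is a description of these letters, and 37.4% of all promoters hold one.

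Ntn1 correlated with its repulsive receptor Unc5c at 0.59 (rho 0.62, permutation p = 1e-05, adjusted p = 7e-05), with group means removed at 0.61 and after median centring at 0.48. Leaving out the 2 arrays farthest from the Ntn1 median gave 0.66. The attractive receptor Dcc correlated with Ntn1 at 0.24 (adjusted p = 0.12 by permutation), Unc5a at 0.24, Unc5b at 0.34 and Unc5d at 0.30. The difference between these correlations was not tested. The co-receptors Nrp2 and Plxna3, which together receive Sema3f, had an r of 0.59 but a rho of 0.38 (adjusted permutation p = 7e-05 and 0.0082). Slit1 and Slit3 correlated with Robo1 at 0.55 and 0.54, whereas Slit2 and Robo1 had an r of 0.03 (rho -0.09, adjusted permutation p = 0.86). For Sema3e and Plxnd1 the r of 0.32 rested on the 2 arrays farthest from the Sema3e median, since it was 0.17 without them. The other 2 lowest pairs were Efna5 with Epha3 (r = 0.02, rho -0.01) and Sema3d with its neuropilin Nrp1 (r = -0.01, rho -0.04). For these 3 the permutation p before adjustment was 0.81, 0.86 and 0.95. Without the 2 arrays farthest from the ligand's median their r was -0.06, -0.05 and -0.02. With the lower quartile of each array regressed out, Sema3d and Nrp1 had an r of -0.41 and passed (adjusted permutation p = 0.00525).

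**Figure D4:**
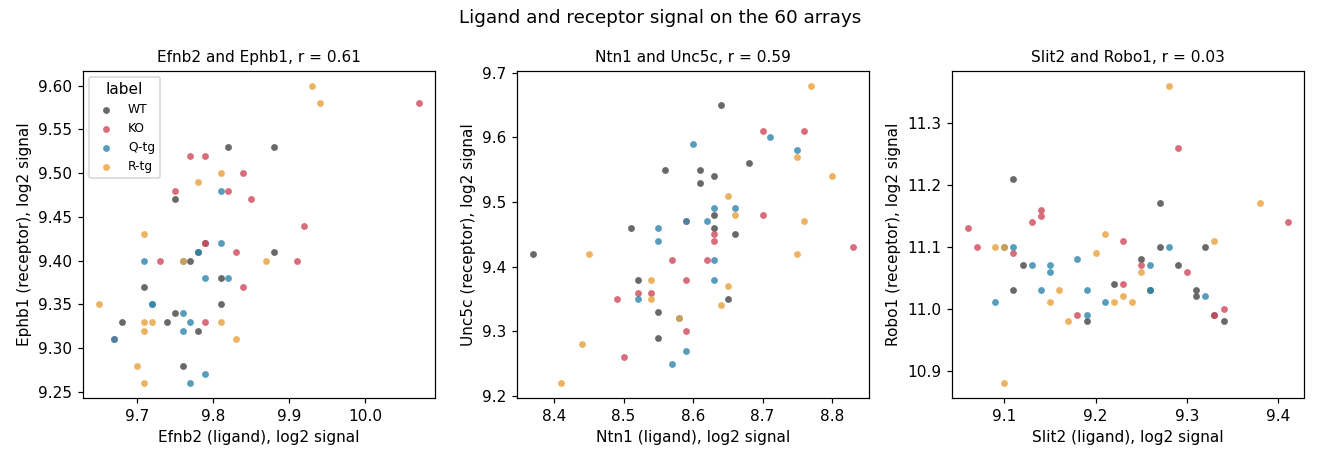
Log2 signal of a ligand (horizontal axis) against a receptor (vertical axis) on the 60 arrays, coloured by labelled genotype, for Efnb2 and Ephb1, Ntn1 and Unc5c, and Slit2 and Robo1. Pearson's r is 0.61, 0.59 and 0.03, and arrays of every label lie along the cloud of the first 2 pairs.

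Of the 5 closest pairs among all 703, 4 joined genes of different systems, as do 508 of the 703. Plxna3 and Plxnb1, both plexins, had an r of 0.80. Robo1 and Plxnd1, receptors for slit and semaphorin, had 0.79, as did Slit1 and Plxna1. Slit1 and Ephb1 had 0.78, and Unc5a and Plxna1 0.77. The 5 lowest correlations all involved the dim gene Robo3, down to -0.46 with Plxnb2.

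Guidance genes were set against markers of brain regions and cell types. With the mean of 5 cortex markers, 19 of 38 correlated at 0.30 or more and 0 at -0.30 or less, beside 31.5% of 14184 genes at 0.30 or more. With the mean of 18 hindbrain and spinal cord markers, mostly Hox genes, 19 of 38 lay at -0.30 or less, beside 26.4%, and 1 at 0.30 or more, beside 9.85%. Of those hindbrain markers 10 were dim. With thalamus markers 26 of 38 lay at 0.30 or more, beside 34.7%, and with vascular markers 24, beside 40.9%. With skeletal muscle markers 23 lay at -0.30 or less, beside 47.2%, and 2 of those 5 markers were dim. These are descriptions, and all genes and markers were read on the same 60 arrays.

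Robo1, a receptor of callosal and thalamocortical axons, followed the cortex markers most closely, with r = 0.77 (rho 0.74, 608 relations, adjusted permutation p = 0.00014) and 0.74 without the 2 most extreme arrays. Epha3 had 0.73 with cortex and -0.68 with hindbrain markers (rho 0.73 and -0.70). Efnb2 had 0.72 and -0.59, and Plxna2 0.70 and -0.58. Unc5a had 0.66 with cortex and 0.70 with thalamus, and Ephb1 0.70 with thalamus. On the opposite side Unc5c was the 1 gene that followed the hindbrain markers, with 0.39 (rho 0.48). It also followed oligodendrocyte lineage markers at 0.69 and astrocyte markers at 0.63 (rho 0.69 and 0.68). With choroid plexus markers Unc5c had 0.60 and Ntn1 0.44 (rho 0.64 and 0.55). Sema3d had 0.60 with astrocyte markers (rho 0.63), Ntn1 0.33 and Sema7a 0.38. In all 8 guidance genes lay at 0.30 or more with astrocyte markers, beside 14.3%, and 5 at -0.30 or less, beside 3.88%. Among the latter were Epha3 (-0.60) and Plxna2 (-0.58).

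**Figure D5:**
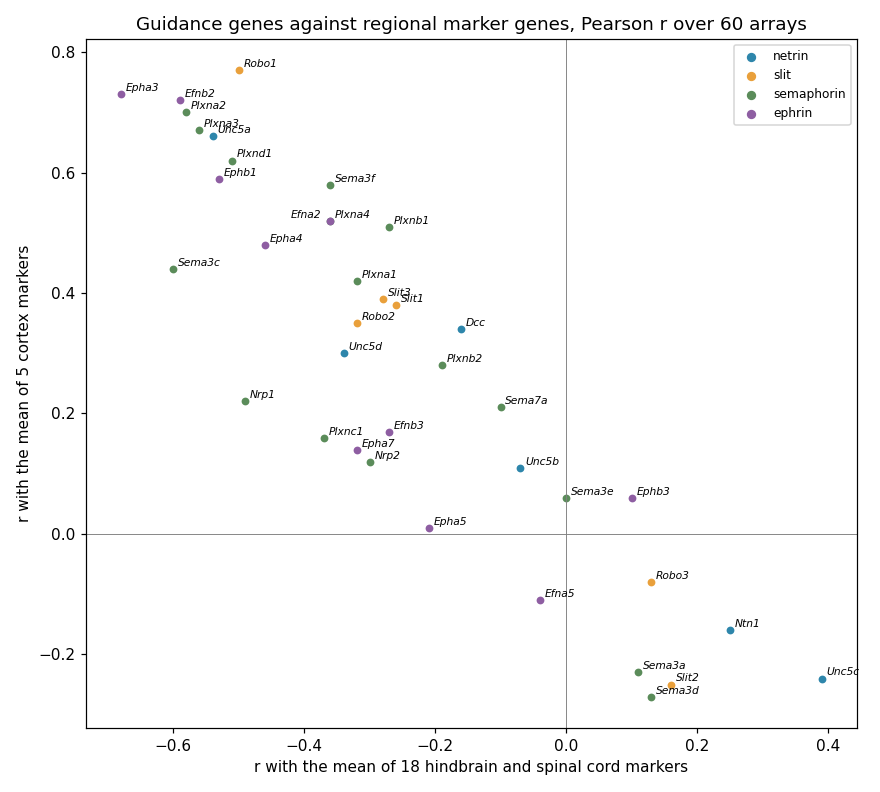
Pearson's r over 60 arrays of each guidance gene with the mean of 18 hindbrain and spinal cord markers (horizontal axis) and with the mean of 5 cortex markers (vertical axis), coloured by system. Robo1, Epha3 and Efnb2 lie at the upper left, with 0.77, 0.73 and 0.72 for cortex, and Unc5c lies farthest right at 0.39.

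Other genes of the guidance pathway were taken from 2 lists. Of 41 further ligands and receptors 40 were measured, and of 33 intracellular effectors 32, and 0 passed in any of the 21 contrasts. In R-tg at 0.75 the medians were -0.037 and -0.033, beside -0.016 over all. Lower than at dose 0 were 34 of the 40 and 26 of the 32, beside 59% of all transcript clusters. Of these, 2 in each list had an unadjusted p under 0.05, all of them lower, which is near the 5.31% of all transcript clusters. Farp2, a Rac exchange factor that acts downstream of semaphorin receptors, had the largest difference among the effectors at -0.15 (SE 0.05, limma adjusted p = 0.898). In R-tg minus Q-tg at 0.85 the transmembrane semaphorin Sema4b differed in response by -0.25, and it had read 0.15 (SE 0.05) higher in R-tg than in Q-tg at dose 0. In WT at 0.75 Efna4, a ligand of EphA receptors, differed by -0.15 (SE 0.05, limma adjusted p = 0.456).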

How the data were processed

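Each of 60 Affymetrix Mouse Gene 1.0 ST arrays held the pooled fetal brain RNA of 1 dam. The deposited log2 values were made by the authors with RMA in the oligo package under R 2.15.1, per the submitters' processing notes, and were used as deposited. The table has 28858 transcript clusters. By GEO's platform annotation 21789 carry a single symbol and were tested, 1621 carry several symbols and 5448 carry no symbol. For Unc5d and Ephb1, with more than 1 transcript cluster, the brightest was used.

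All 60 arrays entered a single limma 3.58.1 model (R 4.3.3) with 12 group means, which gave 21 contrasts and the F test. Tests were 2-sided, with Benjamini-Hochberg adjustment of p-values across the 21789. Intervals are 95% intervals of that model. Correlations used 100000 permutations in Python 3.11.15. The number of arrays limits the precision.

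The members, pairs, marker lists and tests were chosen with earlier results of these data known. Array values are given for the gene of smallest p in each dose, genotype and average contrast, for the 3 of smallest F test p and for any gene that passed. Of each contrast the 4 genes of largest difference are given as values. Others, the Epha3 and Plxna2 comparison by Pon1 level among them, were chosen after their values were seen. Alternatives changed the scaling (median centring), the prior on variances, the weights of arrays, the transcript clusters tested (only those not dim, or all), the value of a gene with several (their mean), the covariates (lower quartile, hindbrain markers, replicate number as a block) and the arrays (only the contrasted groups, or some left out). The scripts were checked on simulated data. Replicate numbers come from the sample titles. Arrays of the same number deviated together no more than others (mean r -0.009 against 0.003), and 8 of 60 correlated best with their own number, so the numbers do not pair the arrays.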

Additional observations from a re-analysis of the deposited data

Results flagged for a closer look

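Among 72 combinations of 6 genes and 12 groups of 5 arrays, 2 held an array far from the others of its group, where chance gives about 1 in 20. Plxna2 read 10.97 in R-tg at 0.85 replicate 5, against 10.77 to 10.81 on the others. Unc5b read 7.49 in Q-tg at 0.85 replicate 3, against 7.55 to 7.56 on the others.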

How the results depend on the processing

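In every contrast but R-tg minus Q-tg at 0.85, 0 guidance genes passed under the alternatives run, leaving out each array in turn included. In the F test 1 gene passed with array weights (Sema7a, limma adjusted p = 0.0498) and 1 without the arrays whose Pon1 goes against the label (Epha3). The latter fit parts the arrays by measured Pon1 and is no independent test of the Epha3 split. In R-tg minus Q-tg at 0.85, 1 gene (Sema7a) passed with array weights and 1 without the 3 arrays that stand apart, and leaving out each array in turn gave 0 to 1. With the replicate block 0 passed in any contrast or in the F test, and Sema7a had an F test adjusted p of 0.96. Of the 35 pairs, 11 passed after median centring, where 17 had passed, and 13 to 19 under the other alternatives. KO minus WT at dose 0 for Epha3 was 0.04, and leaving out each array in turn gave -0.00 (without KO replicate 4 or WT replicate 4) to 0.11 (without WT replicate 2). The causes were not tested. The 5 arrays of a group limit the precision. Ephb2 was not analysed here.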
